A study of Mus musculus with 29 samples.

Results

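Liver gene expression at 21 days of bile duct ligation (BDL), in which the common bile duct is tied off outside the liver, was compared with that at 3 days. The members are the 5 arrays labelled 21 days of BDL and the 5 labelled 3 days of BDL, chosen by those labels alone, which makes 10 of the 29 arrays of the series. Each array held liver RNA of 1 mouse, as the labels read. All mice were male C57BL/6N, 8 to 10 weeks old at the start, on a standard diet before and after surgery, and carried no engineered allele. The other arrays were BDL at day 7 (5) and day 1 (5) and sham operations at day 7 (4), day 3 (2) and day 1 (3). A sham group of day 21 was not analysed here, so greater age and a longer time after surgery cannot be told apart from longer ligation.

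Bile made by hepatocytes leaves the liver through the bile duct, and its blockage raises bile acids in liver and blood. In rodents the ligated liver is known for injured patches of hepatocytes in the first days, followed by proliferating ductules, inflammatory cells and fibrous tissue around the portal tracts. Hepatocytes limit bile acid load by lowering synthesis and uptake and raising export, while stellate cells and portal fibroblasts deposit collagen. In RNA of whole liver, a change in the number of cells of a type and a change in RNA per cell cannot be told apart.

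The liver marker Alb, albumin, had log2 values of 14.14 to 14.22 in the day 21 livers and 14.12 to 14.15 in the day 3 livers, near the top of the scale, where differences are compressed. Array-to-array correlations were 0.979 to 0.990 within day 21, 0.964 to 0.989 within day 3 and 0.947 to 0.977 between the days. The mean level of small nucleolar RNAs, short RNAs without a poly(A) tail that can track RNA quality, spanned 7.811 to 8.144 at day 21 and 7.868 to 8.164 at day 3. The first principal component of the 10 arrays held 42.2% of the variance and separated the days, with scores of 9.01 to 31.52 at day 21 and -28.21 to -13.44 at day 3. The second held 16.1% and spread the day 3 livers from -21.93 to 26.91. Replicate 4 stood farthest out among the day 21 livers, and replicates 2 and 5 stood at the ends of the day 3 livers. The labels give no batch or scan date.

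**Figure D1:**
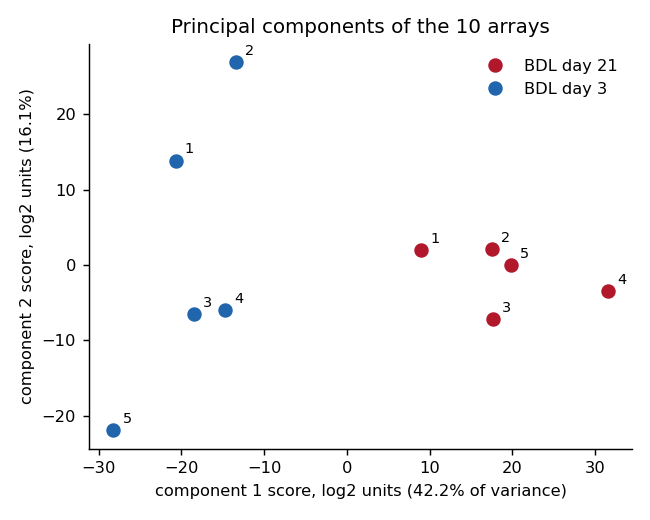
Scores of the 10 arrays on the first (horizontal) and second (vertical) principal component of the genes tested, in log2 units, with points numbered by replicate. The first component separates the 5 day 21 livers (9.01 to 31.52) from the 5 day 3 livers (-28.21 to -13.44), and the second spreads the day 3 livers widely (-21.93 to 26.91).

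Of 14699 genes tested with limma, 1398 (9.51%) had an adjusted p under 0.05, of which 1115 (7.59% of the genes tested) were higher and 283 (1.93%) lower at day 21. The change was at least 2-fold in 174 of the higher and 39 of the lower genes. The values of the 5 day 21 livers and the 5 day 3 livers did not overlap in 1374 genes (9.35%), and 888 genes (6.04%) met both conditions. Over all genes tested the median log2 difference, day 21 minus day 3, was 0.03 and the median standard error 0.13. The split between higher and lower genes moved with scaling, since centring every array on its own median gave 742 higher and 579 lower genes. Array medians were 5.516 to 5.547 at day 21 and 5.466 to 5.505 at day 3. Without replicate 4 of day 21, 813 genes passed, 658 higher and 155 lower. Without replicate 5 of day 21, 178 lower genes passed.

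All class II genes of the major histocompatibility complex that were tested rose, and H2-Ab1 and H2-Aa showed the largest increases among named genes whose values did not overlap. Class II molecules present peptides to CD4+ T cells and are made mainly by dendritic cells, macrophages and B cells. Of the 12 genes listed, 11 were measured and 8 tested, and all 8 rose, with a median log2 difference of 1.11 against 0.03 for all genes. H2-Ab1, a class II beta chain, had log2 values of 10.40, 10.89, 10.45, 11.52 and 11.20 in the day 21 livers, against 6.54, 7.23, 6.73, 7.78 and 7.45 in the day 3 livers. The lowest day 21 liver lay well above the highest day 3 liver, and the fold was 13.4 (log2 difference 3.75, SE 0.30, n = 5 per group, limma adjusted p = 4.27e-09). H2-Aa, the alpha chain that pairs with it, had 8.90, 9.26, 8.79, 9.89 and 9.71 at day 21, against 5.66, 5.84, 6.00, 6.39 and 6.17 at day 3 (log2 difference 3.30, SE 0.25, adjusted p = 1.311e-09). H2-Eb1, another beta chain, reached 8.91 to 10.00 at day 21 and 6.84 to 7.46 at day 3. H2-DMa, part of the molecule that loads peptide, reached 6.83 to 7.87 at day 21 and 5.77 to 6.25 at day 3. The other members were H2-DMb2, the partner of H2-DMa (log2 difference 0.89), Ciita, the coactivator that switches class II genes on (0.80), Ctss, the protease cathepsin S that trims the invariant chain (1.03), and H2-Oa, which restrains peptide loading (0.45). H2-DMb2 and H2-Oa had day 3 means below a log2 level of 5, where signals on the array are weak. Replicate 4 was the highest day 21 liver for H2-Ab1, H2-Aa, H2-Eb1 and H2-DMa. In the 9 sham livers H2-Ab1 spanned 6.50 to 8.91, below all 5 day 21 livers. The 6 shams of days 7 and 3 had 7.90 to 8.91, above all 5 day 3 livers, and 2 shams of day 1, at 6.50 and 6.59, were the low ones.

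Promoters of H2-Aa, H2-Eb1 and H2-DMb2 are shown because these class II genes rose together, and class II promoters are known for a shared set of short boxes. Each line holds the 250 bases before the transcription start on the gene's strand, from RefSeq with build GRCm38.p6. Capitals mark TGATTGG, the Y box bound by the factor NF-Y, a motif chosen after the sequences had been read. H2-Aa lies at chr17:34287824-34288073 (minus strand), H2-Eb1 at chr17:34305617-34305866 (plus strand) and H2-DMb2 at chr17:34144999-34145248 (plus strand).
H2-Aa: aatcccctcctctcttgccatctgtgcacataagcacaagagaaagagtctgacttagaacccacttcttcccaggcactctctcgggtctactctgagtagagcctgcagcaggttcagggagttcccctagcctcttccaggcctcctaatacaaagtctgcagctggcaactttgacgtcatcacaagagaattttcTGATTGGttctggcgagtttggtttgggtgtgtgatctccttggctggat
H2-Eb1: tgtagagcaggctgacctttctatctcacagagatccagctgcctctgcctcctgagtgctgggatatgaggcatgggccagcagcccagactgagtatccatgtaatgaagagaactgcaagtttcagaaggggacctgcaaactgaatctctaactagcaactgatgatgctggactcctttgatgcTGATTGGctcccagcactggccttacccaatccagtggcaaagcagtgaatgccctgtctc
H2-DMb2: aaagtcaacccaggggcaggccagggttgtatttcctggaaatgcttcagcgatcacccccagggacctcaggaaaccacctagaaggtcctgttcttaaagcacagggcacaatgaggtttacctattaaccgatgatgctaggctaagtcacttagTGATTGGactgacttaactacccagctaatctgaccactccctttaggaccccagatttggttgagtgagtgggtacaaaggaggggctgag
The motif starts 50 bases before the start in H2-Aa, 61 in H2-Eb1 and 92 in H2-DMb2, on the gene's own strand in each. In windows of 250 bases before to 50 after the start, searched on both strands, the Y box was present in 4 of the 6 class II genes with a promoter in the table (66.7%), in 9.0% of all 27025 genes with one and in 10.6% of the 11452 of these that were tested. The Y box contains the reverse complement of CCAAT, so matches of the pair overlap. CCAAT was present in 5 of the 6 (83.3%) and in 41.1% of all genes. The Y box was also present in 10 of the 26 cell cycle genes with a promoter in the table (38.5%), so it is not particular to class II genes. These matches are a description of the sequence, and binding was not measured.

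Some transcripts of antibody-producing cells rose. Jchain, the joining chain of polymeric antibodies made by plasma cells, had 5.12, 5.71, 5.02, 5.95 and 5.49 in the day 21 livers, against 3.38, 3.78, 3.28, 3.69 and 3.78 in the day 3 livers. The groups did not overlap, and the fold was 3.67 (log2 difference 1.88, SE 0.18, adjusted p = 6.572e-08). Ighm, the constant region of IgM, had 9.38, 10.08, 9.98, 9.93 and 9.62 at day 21, against 8.77, 8.63, 8.83, 8.70 and 8.94 at day 3 (log2 difference 1.02, SE 0.17, adjusted p = 0.0001255). Variable segments were among the 20 largest increases of genes whose groups did not overlap, predicted genes passed over. A kappa light chain segment of the Igkv9 family reached 4.07 to 6.37 at day 21 and 2.09 to 2.89 at day 3, and its sham range of 2.29 to 6.13 covered most of both. A segment of the Igkv4 family reached 4.53 to 6.91 at day 21 and 3.21 to 3.55 at day 3. The heavy chain segment Igh-VS107 reached 7.06 to 8.07 at day 21 and 4.98 to 5.73 at day 3. Several of these values lie below a log2 level of 5, where signals on the array are weak and folds are uncertain. Jchain exceeded that level, which the filter uses, only in day 21 livers. The Igkv9 and Igkv4 segments exceeded it only in day 21 livers and a sham liver. These genes were thus tested because they were high at day 21, so their rise is partly set by the filter. Of 19 B and plasma cell genes measured, 12 were tested, and the count below shares this limit. Of the 12 B and plasma cell genes tested, 3 rose and none fell (Jchain, Ighm and Cd22, an inhibitory receptor of B cells, at 0.44), and the list's median difference was 0.06, close to that of all genes. The Cd22 call was lost without a filter, with centred arrays and without 6 of the 10 single arrays. In the sham livers of day 7 Ighm had 8.77 to 9.67 and Cd22 5.05 to 6.02, so both overlapped day 21. Jchain had 3.62 to 4.41 there, below every day 21 liver. The mean level of the list was 6.283 to 6.553 at day 21, 5.998 to 6.197 at day 3 and 6.121 to 6.489 in those sham livers. At day 7 of BDL the mean of Jchain was 3.75 ± 0.42 (SD, n = 5), near its day 3 mean of 3.58 ± 0.23 and unlike its day 21 mean of 5.46 ± 0.39.

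Of 17 T cell and NK cell genes 4 rose and none fell (23.5% passed, against 9.51% of all genes tested). The median log2 difference was 0.06. The mean level of the list was 5.383 to 5.829 at day 21 and 5.228 to 5.347 at day 3. In the sham livers of day 7 it was 5.33 to 5.778, so the list at day 21 overlapped sham. Ccl5, a chemokine of activated T cells, had 7.58, 8.22, 7.62, 9.56 and 7.69 at day 21, against 6.40, 6.45, 6.17, 6.79 and 6.62 at day 3 (log2 difference 1.65, SE 0.31, adjusted p = 0.0006273). Cd3e, a subunit of the T cell receptor complex, rose by 0.90 in log2, and Cd4 and Foxp3, which mark helper and regulatory T cells, differed by 0.07 and 0.01 and did not pass. Cd3g, another receptor subunit, rose by 0.85, with replicate 4 of day 21 at 6.77 and the other day 21 livers at 4.71 to 5.32. Without that liver its log2 difference was 0.50 (adjusted p = 0.07144), and the call was also lost without replicate 1 or 2 of day 3 (0.06842 and 0.05029) and with only the 10 arrays in the fit (0.1061). Gzmk, a granzyme, rose by 0.41, a call lost without a filter, with centred arrays, with only the 10 arrays and without 5 of the 10 single arrays (0.05039 to 0.1399). The day 21 values of Ccl5, Cd3e, Cd3g and Gzmk overlapped those of the day 7 sham livers, for Ccl5 through sham replicate 2 alone.

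Genes of monocyte-derived macrophages formed another large block of increases, with 17 of 23 tested genes higher, 1 lower and a median log2 difference of 0.90. Clec7a, the beta-glucan receptor Dectin-1, had 8.58, 8.23, 8.22, 9.16 and 8.60 in the day 21 livers, against 5.92, 6.70, 6.29, 6.98 and 6.30 in the day 3 livers (4.35-fold, log2 difference 2.12, SE 0.26, adjusted p = 3.406e-06). Ms4a7, a membrane protein of macrophages, had 5.80, 6.43, 5.69, 6.81 and 6.54 at day 21, against 4.59, 4.59, 4.38, 4.43 and 3.86 at day 3, and in the 9 sham livers it spanned 4.09 to 4.76. Neither gene's groups overlapped. Adgre4, an adhesion receptor of myeloid cells, rose by 1.34 in log2. Ly6c2, which marks inflammatory monocytes, rose by 1.26, with an adjusted p of 0.02199 that became 0.05054 to 0.09326 without replicate 4 or 5 of day 21 or replicate 3 or 5 of day 3. The member that fell was Chil3, a chitinase-like secreted protein of myeloid cells, with a log2 difference of -1.22. Cybb, the catalytic subunit of the phagocyte NADPH oxidase and no member of the list, had 10.48, 10.82, 10.85, 11.01 and 10.73 at day 21, against 8.29, 8.64, 8.64, 8.99 and 8.52 at day 3 (log2 difference 2.16, SE 0.37, adjusted p = 0.0002506).

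Genes linked to lipid-handling macrophages rose in 8 of 17 and fell in none, with a median log2 difference of 0.60. Lpl, lipoprotein lipase, had 10.14, 10.34, 10.04, 10.73 and 10.43 at day 21, against 8.82, 8.15, 8.53, 8.56 and 7.34 at day 3 (4.16-fold, log2 difference 2.06, SE 0.28, adjusted p = 1.76e-05). Atp6v0d2, a subunit of the proton pump that acidifies lysosomes, had 9.18, 8.09, 7.85, 8.93 and 8.69 at day 21, against 7.08, 6.32, 6.03, 7.19 and 6.13 at day 3. Cd36, a scavenger receptor that takes up fatty acids, rose by 1.36 in log2, Mmp12, macrophage elastase, by 1.18 and Trem2, a lipid-sensing receptor, by 0.72. Gpnmb, a glycoprotein of the same cells, already stood at 7.70 to 8.50 at day 3 and had 7.67 to 9.07 at day 21, against 3.66 to 5.46 in sham livers, and its difference of 0.25 (SE 0.26) did not pass. Rragd, a Rag GTPase that relays amino acid supply to mTORC1 at the lysosome, was the fifth largest increase among named genes whose groups did not overlap, with 8.08, 7.96, 7.92, 8.66 and 7.97 at day 21, against 5.86, 6.04, 5.94, 5.85 and 5.54 at day 3 (log2 difference 2.27, SE 0.19, adjusted p = 5.255e-09). Kupffer cell markers, those of resident liver macrophages, had a median log2 difference of 0.44, with 13 of 15 above 0. Of the 15, 2 passed, both higher (13.3%, near the 9.51% of all genes tested). These were Csf1r, the receptor for colony-stimulating factor 1 that other macrophages share, by 1.25 in log2, and Adgre1, the antigen F4/80, by 0.71. The Adgre1 call was lost without replicate 4 of day 21 (adjusted p = 0.1201) or replicate 1 or 5 of day 3 (0.07863 and 0.07694).

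Among chemokines, cytokines and adhesion molecules, 15 of 33 rose and none fell, with a median log2 difference of 0.31. Il1b, interleukin 1 beta, had 6.23, 7.10, 6.83, 7.59 and 6.38 at day 21, against 5.58, 5.58, 4.20, 5.10 and 4.64 at day 3 (log2 difference 1.81, SE 0.33, adjusted p = 0.0005661). Cxcl16, the ligand of CXCR6, had 8.44, 8.85, 8.56, 9.06 and 8.73 at day 21, against 7.15, 7.33, 7.26, 7.24 and 6.85 at day 3. Ccl2, which recruits monocytes, rose by 1.10 in log2. Ccl2 had a mean of 8.24 at day 1 of BDL, above its day 3 mean of 7.02 ± 0.30 (SD, n = 5) and near its day 21 mean of 8.12 ± 0.30. Of 14 neutrophil genes 1 passed (7.14%, near the share of all genes), namely Il1b, which monocytes also make, and S100a8 and S100a9 differed by 0.42 and 0.38 without passing. Interferon-stimulated genes rose in 7 of 27 (25.9%, against 9.51% of all genes tested that passed), with a median log2 difference of 0.45. They were led by Cxcl9, a chemokine induced by interferon gamma (1.31), Bst2, a tether of budding viruses (1.12), and Oasl2, an antiviral protein (1.04). The mean level of the list was 7.053 to 7.432 at day 21 and 6.451 to 7.074 at day 3, and 7.359 to 8.135 at day 7 of BDL. In the sham livers of day 7 it was 6.89 to 7.02. Bst2 had 10.23 to 10.61 at day 21, 8.42 to 9.81 at day 3 and 10.24 to 10.67 in those sham livers, so day 21 stood at sham level. Oasl2 was higher at day 21 (5.99 to 6.79) than in the same sham livers (5.37 to 5.82). The Cxcl9 call was lost when the fit held only the 10 arrays (adjusted p = 0.06223) and without 6 of the 10 single arrays (0.05326 to 0.09325).

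**Figure D2:**
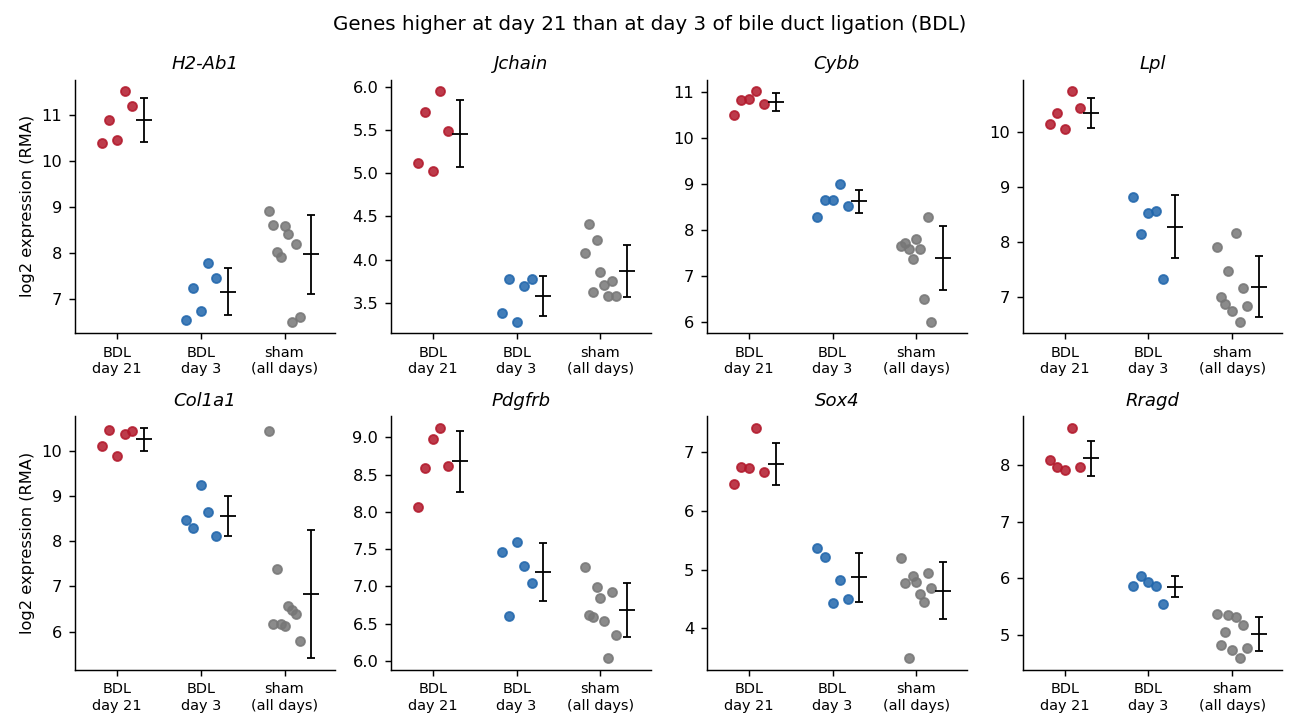
Log2 expression of 8 genes in every day 21 liver (5), day 3 liver (5) and sham liver (9, all days), with the mean and SD beside each group. For each gene the lowest day 21 value lies above the highest day 3 value, as with H2-Ab1 (10.40 against 7.78).

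Most collagen and matrix genes of fibrous tissue rose. Of 20 collagen chains tested, 13 rose and none fell (median log2 difference 0.66), and of 45 other matrix and crosslinking genes 28 rose and none fell (median 0.69). Col1a1, a chain of fibrillar type I collagen, had 10.11, 10.46, 9.88, 10.37 and 10.42 at day 21, against 8.46, 8.30, 9.24, 8.65 and 8.11 at day 3 (3.24-fold, log2 difference 1.70, SE 0.48, adjusted p = 0.02254). Col1a2, its partner chain, had 9.04, 9.19, 9.09, 9.47 and 9.21 at day 21, against 7.48, 7.26, 8.07, 7.45 and 7.17 at day 3. Neither chain's groups overlapped. The Col1a1 call was lost without replicate 4 or 5 of day 21 or replicate 5 of day 3 (adjusted p = 0.05046 to 0.0577), while its log2 difference stayed at 1.59 to 1.67. One sham liver of day 7 had a Col1a1 value of 10.43, as high as the day 21 livers, and this liver enters the shared spread. The same liver had a mean collagen list level of 7.33, against 6.24 to 6.50 in the other sham livers of day 7. Col14a1, a collagen on the fibril surface, rose by 1.58 and Col3a1, the fibrillar type III chain, by 1.56. Chains whose difference was between -0.15 and 0.15 in log2 and did not pass were Col5a3, Col16a1, Col18a1, Col27a1 and Col8a2.

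Dpt, dermatopontin, a small protein of the fibril surface, had 7.74, 7.76, 8.28, 9.08 and 8.08 at day 21, against 6.44, 5.92, 6.78, 6.54 and 6.32 at day 3 (log2 difference 1.79, SE 0.27, adjusted p = 4.864e-05). Lum, the collagen-binding proteoglycan lumican, had 7.62, 7.84, 8.30, 8.86 and 8.06 at day 21, against 6.31, 6.27, 6.81, 6.77 and 5.68 at day 3. Mmp2, a gelatinase, rose by 1.49 and Thbs2, a matricellular thrombospondin, by 1.46. For Dpt, Lum, Mmp2 and Thbs2 replicate 4 was the highest of the day 21 livers. Timp1, an inhibitor of matrix proteases, rose by 1.24 and Lox, the enzyme that crosslinks collagen, by 0.84, with the Lox call lost without replicate 3 or 4 of day 21 or replicate 2 of day 3 (adjusted p = 0.05817 to 0.06746). Fn1, fibronectin, which hepatocytes also secrete, differed by -0.20, and Mmp7 and P4ha2 differed by 0.03 and -0.01, and none of these passed.

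Stellate cell and myofibroblast genes rose in 14 of 27 and fell in 1 (Ecm1, an extracellular matrix protein, -0.46), with a median log2 difference of 0.49. Pdgfrb, the receptor for platelet-derived growth factor B on these cells, had 8.07, 8.59, 8.98, 9.12 and 8.61 at day 21, against 7.46, 6.60, 7.60, 7.27 and 7.04 at day 3 (log2 difference 1.48, SE 0.23, adjusted p = 8.002e-05). Reln, the glycoprotein reelin, which stellate cells of the liver make, rose by 1.16. Acta2, smooth muscle actin, the usual myofibroblast marker, had 8.80, 8.78, 8.47, 9.04 and 8.54 at day 21, against 8.81, 8.03, 8.35, 8.24 and 7.76 at day 3. Its groups overlapped, and the difference of 0.49 (SE 0.26, adjusted p = 0.276) did not pass. The member with the largest rise, Elf3 (1.85), is an epithelial transcription factor and no marker of these cells. Of the TGF-beta genes 10 of 27 rose and none fell. The ligands Tgfb1, Tgfb2 and Tgfb3, which drive collagen production, rose by 0.76, 1.19 and 1.02. Ltbp2, a latent TGF-beta binding protein family member of the matrix, rose by 1.19, Pdgfb, the ligand of Pdgfrb, by 0.82 and the integrin Itgav, which helps release latent TGF-beta, by 0.76. The receptors Tgfbr1, Tgfbr2 and Tgfbr3 differed by 0.21, 0.32 and -0.16 and did not pass.

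Markers of bile ducts rose in 9 of 21 and fell in 1, with a median log2 difference of 0.39, and the classical cytokeratins were not among them. Sox4, a transcription factor of developing ducts, had 6.46, 6.75, 6.73, 7.41 and 6.65 at day 21, against 5.37, 5.22, 4.43, 4.82 and 4.50 at day 3 (3.82-fold, log2 difference 1.93, SE 0.24, adjusted p = 6.061e-06). Bicc1, an RNA-binding protein whose loss causes cystic ducts in mice, rose by 1.26, Prom1, the progenitor antigen CD133, by 1.19, and Cftr, the chloride channel of the duct membrane, by 1.00. Krt19, a keratin of duct cells, had 6.48, 6.39, 6.40, 6.79 and 6.41 at day 21, against 6.37, 6.13, 6.66, 6.35 and 5.97 at day 3, and 5.30 to 5.65 in sham livers. Both BDL groups lay above every sham liver, and the difference between them was 0.20 (SE 0.12, adjusted p = 0.3595). Krt7, the companion duct keratin, differed by 0.39 (SE 0.19) and Sox9, a transcription factor of duct cells, by 0.38 (SE 0.23), and neither passed. Epcam, an epithelial adhesion molecule, passed narrowly (0.65, SE 0.21, adjusted p = 0.04726) and lost its call without a filter, with cyclic loess, with centred arrays and with array weights (adjusted p = 0.0573 to 0.08083) and without 8 of the 10 single arrays (0.05009 to 0.171). Slc10a2, the transporter with which duct cells take up bile acids, fell by 0.72 in log2. Endothelial genes of capillaries, portal vessels and lymphatics rose in 3 of 18 (16.7%, against 9.51% of all genes tested). These were Cd34, a capillary sialomucin (0.87), Sox18, a vascular transcription factor (0.65), and Vwf, von Willebrand factor (0.41). None of the 21 sinusoidal endothelial genes passed in limma, 0 had an unadjusted p under 0.05, and their median was 0.05.

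**Figure D3:**
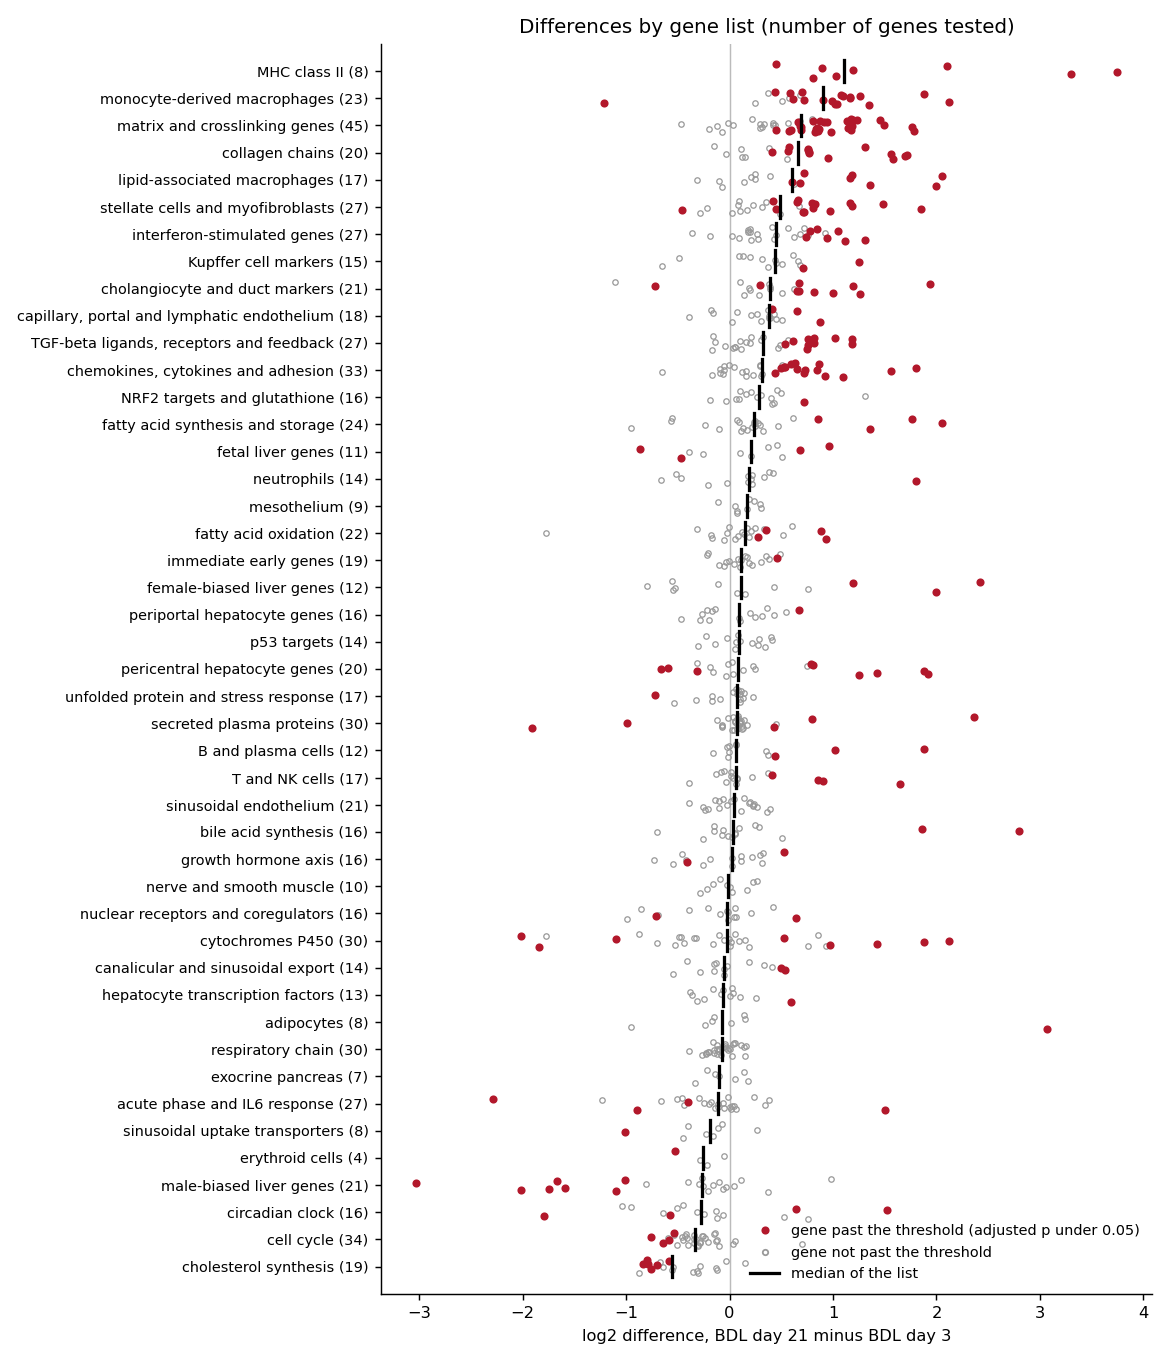
Log2 difference (day 21 minus day 3) of every gene tested in 45 gene lists, filled where the adjusted p was under 0.05, with the median of each list as a bar. All 8 MHC class II genes are filled and to the right of 0, and the cholesterol synthesis list has the lowest median (-0.55).

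Of 16 bile acid synthesis genes, 2 rose and none fell (12.5% passed, near the 9.51% of all genes tested), and both showed a wide spread at day 3. Cyp7a1, which catalyses the rate-limiting first step, had 10.81, 10.42, 10.06, 10.72 and 10.25 in the day 21 livers, against 10.99, 10.08, 5.74, 6.84 and 4.62 in the day 3 livers. Replicates 1 and 2 of day 3 lay at the level of day 21 and of sham (9.32 to 11.53), the other 3 far below it. The log2 difference was 2.80 (SE 0.74, adjusted p = 0.0155), and the call was lost with only the 10 arrays in the fit (adjusted p = 0.09085) and without replicate 3 or 5 of day 3 (0.05723 and 0.0638). Cyp8b1, which makes cholic acid, had 7.74, 7.29, 7.43, 7.10 and 7.07 at day 21, against 7.30, 5.06, 4.34, 4.84 and 5.80 at day 3, and 9.65 to 11.09 in sham livers, above every day 21 liver (log2 difference 1.86, SE 0.36, adjusted p = 0.001079). Nr0b2, the repressor SHP that shuts down Cyp7a1 in response to bile acids, had 8.20 to 8.60 at day 21 and 9.21 to 9.79 at day 3 without overlap, and its difference of -0.99 (SE 0.33) had an adjusted p of 0.0529. Nr1h4, the bile acid receptor FXR, differed by 0.04 (SE 0.11).

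Of the bile acid transporters 1 of 8 for uptake (12.5%) and 2 of 14 for export (14.3%) passed, near the 9.51% of all genes tested. Slc10a1, the main uptake carrier NTCP, had 10.72 to 11.43 at day 21 and 11.04 to 11.71 at day 3 (log2 difference -0.45, SE 0.20, adjusted p = 0.19). Slco1a1, an organic anion uptake carrier, was at 9.43 to 11.32 in sham livers, and had 3.45, 4.20, 3.74, 4.24 and 3.98 at day 21, against 5.57, 5.59, 4.48, 4.66 and 4.39 at day 3. It fell by 1.01 in log2 (SE 0.32, adjusted p = 0.04111) at a weak signal, and the call was lost without a filter on low values (0.05263) and without 6 of the 10 single arrays. Abcb11, the bile salt export pump, differed by -0.05 (SE 0.20). Abcc3, a pump that returns bile acids to blood, had 11.08 to 11.31 at day 21 and 10.46 to 10.85 at day 3 and rose by 0.50 (SE 0.12, adjusted p = 0.008735). Abcc1, an efflux pump of conjugates, rose by 0.54, a call lost without 5 of the 10 single arrays (0.05431 to 0.07468). Abcc4, another pump toward blood, differed by 0.41 (SE 0.14, adjusted p = 0.06151).

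Several hepatocyte genes shared the wide spread of Cyp7a1 at day 3. Of the 148 genes named by rule, 10 had an SD over 1 at day 3 and 2 at day 21, and in 8 of the 10 replicates 1 and 2 were the highest pair of day 3 livers. Over all genes tested the median SD was 0.155 at day 21 and 0.174 at day 3, and 58.3% of genes had the larger SD at day 3. Car3, a carbonic anhydrase abundant in hepatocytes and fat, had 8.73, 9.36, 7.90, 10.61 and 10.26 at day 21, against 6.95, 9.52, 5.14, 4.85 and 5.04 at day 3 (log2 difference 3.07, SE 0.62, adjusted p = 0.00149). Serpina6, the corticosteroid-binding globulin, had 9.89, 9.80, 9.02, 10.09 and 9.64 at day 21, against 8.31, 10.07, 6.59, 6.30 and 5.36 at day 3 (log2 difference 2.36, SE 0.52, adjusted p = 0.003714). For Car3 and Serpina6 the day 3 livers overlapped the day 21 livers through replicate 2, and all 10 lay below the sham range of 11.56 to 13.28 for Car3 and of 10.31 to 11.94 for Serpina6. Car3 was the sole one of 8 adipocyte genes to pass, and the adipocyte list as a whole had a median of -0.07.

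**Figure D4:**
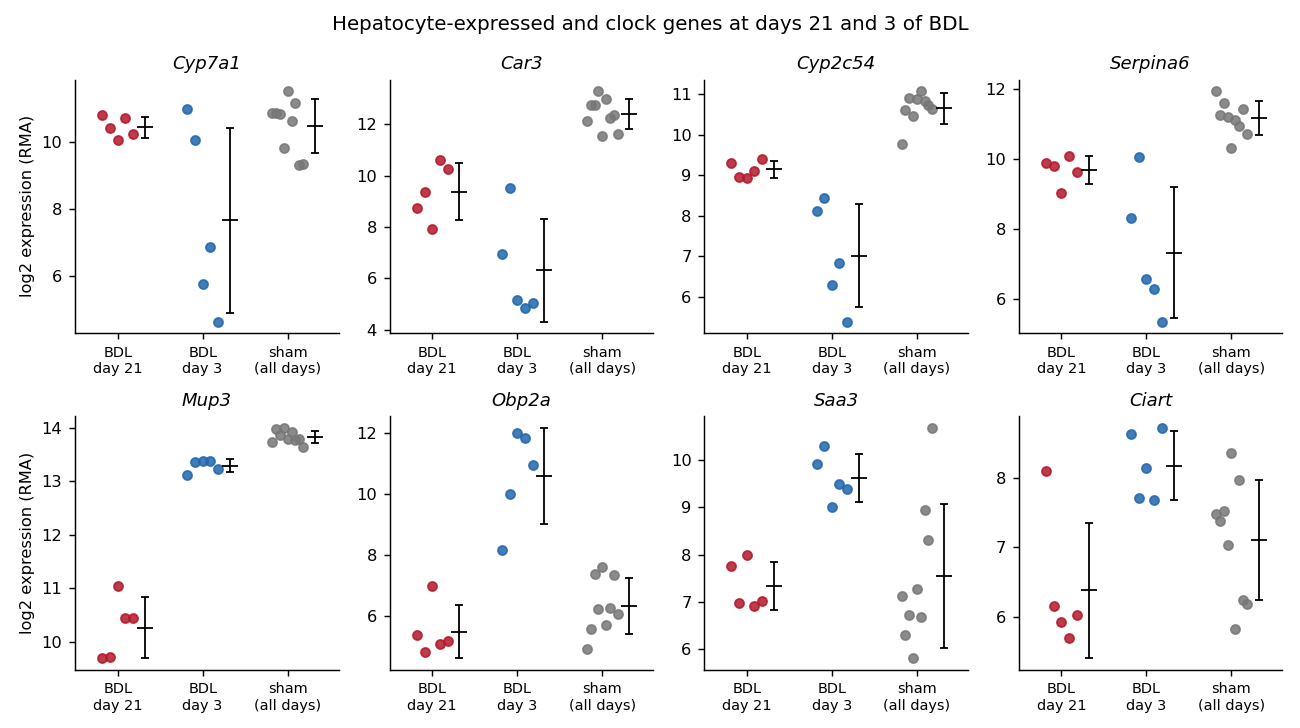
Log2 expression of 8 hepatocyte-expressed and clock genes in every day 21 liver (5), day 3 liver (5) and sham liver (9, all days), with the mean and SD beside each group. Cyp7a1, Car3, Cyp2c54 and Serpina6 spread widely at day 3, and Mup3 is lower in every day 21 liver (at most 11.04) than in every day 3 liver (at least 13.11).

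Of the pericentral hepatocyte genes, those expressed around the central vein, 6 of 20 rose and 3 fell (45.0% passed). Their median log2 difference was 0.09. Of 30 cytochromes P450 5 rose and 3 fell (26.7% passed), with a median of -0.03. Of all genes tested 9.51% passed. Cyp2c54, a member of the Cyp2c family of drug and fatty acid oxidising enzymes, had 9.30, 8.95, 8.94, 9.11 and 9.40 at day 21, against 8.12, 8.45, 6.30, 6.83 and 5.40 at day 3 (log2 difference 2.12, SE 0.36, adjusted p = 0.0002403). Cyp2c50, of the same family, had 9.89 to 10.44 at day 21 and 7.18 to 9.50 at day 3. Their groups did not overlap, but Cyp2c genes have near-identical copies, so each value may hold signal of a relative. Cyp1a2, the caffeine-metabolising enzyme, rose by 1.92 (adjusted p = 0.01259, and 0.08682 with only the 10 arrays). Aldh3a2, which oxidises fatty aldehydes, rose by 1.26, with 8.86 to 9.20 at day 21 and 7.09 to 8.59 at day 3. In sham livers Cyp2c54 spanned 9.76 to 11.07 and Cyp1a2 10.58 to 11.65, above every day 21 liver. The sham ranges of Cyp2c50 (9.98 to 11.18) and Aldh3a2 (8.84 to 9.66) overlapped day 21. The mean level of the pericentral list was 8.693 to 8.863 at day 21, 7.894 to 9.037 at day 3 and 8.988 to 9.632 in day 7 sham livers. The 3 pericentral genes that fell were Lect2, a secreted leukocyte chemotactic factor (-0.67), Lgr5, a Wnt signal receptor (-0.60), and Cyp2e1, the ethanol-oxidising enzyme (-0.31), whose call at an adjusted p of 0.04956 was lost without a filter (0.07458), with only the 20 BDL arrays (0.05744) and without 8 of the 10 single arrays (0.0719 to 0.1294). Glul, glutamine synthetase, the marker of the innermost ring of hepatocytes, differed by 0.13 (SE 0.27), and its rows on the array differed in sign. Cyp17a1, a steroid hydroxylase, fell by 1.84, with an adjusted p of 0.02575 that was 0.08738 to 0.1034 without replicate 4 or 5 of day 21 or replicate 1 of day 3.

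In lipid metabolism, 4 of 24 genes of fatty acid synthesis and storage (16.7%) and 4 of 22 of fatty acid oxidation (18.2%) rose, and none fell. Of all genes tested 9.51% passed. The mean level of the oxidation list was 8.848 to 9.018 at day 21 and 8.478 to 9.256 at day 3. It was higher in the sham livers of day 7, at 9.408 to 9.589. Scd1, which makes monounsaturated fatty acids, had 12.94, 13.06, 12.61, 13.13 and 12.97 at day 21, against 12.81, 12.23, 11.76, 10.05 and 9.06 at day 3 (log2 difference 1.76, adjusted p = 0.007642, and 0.0655 with only the 10 arrays). Pparg, a lipid-sensing nuclear receptor, rose by 0.86. The other genes of this list that rose were Lpl and Cd36, described above with lipid-handling macrophages. The synthesis genes Fasn, Acaca and Acly and the regulator Srebf1 differed by 0.30, 0.33, 0.17 and 0.61 and did not pass. In oxidation the genes that rose were Acaa1b and Ehhadh, peroxisomal enzymes (0.94 and 0.88), Etfdh, an electron carrier (0.35), and Acadm, an acyl-CoA dehydrogenase (0.27). Acaa1b had 7.39 to 8.88 at day 21, below every sham liver (9.22 to 10.26), and the day 21 values of Ehhadh, Etfdh and Acadm overlapped sham. The calls of Acaa1b, Etfdh and Acadm were lost when arrays were centred (adjusted p = 0.05518 to 0.1909) and without 6, 6 and 9 of the 10 single arrays (0.05155 to 0.1214). Those of Acaa1b and Etfdh were also lost with only the 10 arrays, that of Acaa1b with cyclic loess, and those of Etfdh and Acadm without a filter. In cholesterol synthesis 6 of 19 genes fell and none rose, with a median log2 difference of -0.55. Tm7sf2, a sterol reductase, had 9.10, 9.02, 8.68, 8.95 and 8.81 at day 21, against 9.59, 9.87, 9.70, 9.83 and 9.55 at day 3 (log2 difference -0.80, SE 0.11, adjusted p = 3.239e-05). The others that fell were Nsdhl, a later enzyme of sterol demethylation (-0.84), Pmvk and Mvk, kinases of mevalonate (-0.78 and -0.70), Hsd17b7, a sterol ketone reductase (-0.76), and Stard4, a cholesterol carrier (-0.58). The calls for Nsdhl, Pmvk and Hsd17b7 were lost without 2, 3 and 6 of the single arrays, with adjusted p values of 0.05009 to 0.1236. Hmgcs1, an early enzyme, and Srebf2, the regulator of the pathway, differed by -0.13 and -0.03. The mean level of the list was 9.392 to 9.734 at day 21, 9.590 to 10.340 at day 3 and 9.172 to 9.627 in the sham livers of day 7.

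Of the genes that male mouse livers express more than female ones, 7 of 21 fell and none rose. Thus 33.3% passed, against 9.51% of all genes tested, and the median log2 difference was -0.27. Mup3, a major urinary protein that carries pheromones, had 9.69, 9.72, 11.04, 10.44 and 10.45 at day 21, against 13.11, 13.36, 13.38, 13.38 and 13.23 at day 3 and 13.65 to 14.00 in sham livers. The groups did not overlap, and Mup3 was 8.15-fold lower at day 21 (log2 difference -3.03, SE 0.17, adjusted p = 1.625e-12). Cyp4a12a, a fatty acid hydroxylase, had 3.77, 3.56, 3.72, 4.11 and 3.73 at day 21, against 5.88, 5.05, 6.53, 5.41 and 6.12 at day 3 and 8.08 to 9.93 in sham livers. Serpina1e, an antitrypsin copy, had 10.05, 9.21, 9.72, 9.80 and 8.87 at day 21, against 11.44, 11.30, 10.88, 11.20 and 11.17 at day 3. The remaining ones were Cyp4a12b (-1.74), Elovl3, a fatty acid elongase (-1.59), Cyp2d9, a steroid hydroxylase (-1.10), and Slco1a1. The Cyp2d9 call was lost without replicate 2 of day 21 (limma adjusted p = 0.05161). Mup, Cyp4a, Cyp2d and Serpina genes have near-identical copies, which makes their values uncertain. The mean level of the list was 7.348 to 7.773 at day 21, 7.820 to 8.493 at day 3 and 9.944 to 10.95 in the sham livers of day 7. Hsd3b5, a male steroid enzyme at 7.37 to 10.38 in sham livers, was at the bottom of the scale in both groups, with 2.71 to 3.32 at day 21 and 2.90 to 3.64 at day 3. C4a, the sex-limited protein, a near copy of complement C4b, fell by 1.91, with 5.55 to 6.74 at day 21 and 7.44 to 8.71 at day 3.

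Female-biased liver genes rose in 3 of 12 and fell in none, with a median of 0.11. Slc22a26, an organic anion transporter of that group, had 8.82, 7.90, 7.09, 7.36 and 7.28 at day 21, against 5.63, 5.78, 4.78, 5.26 and 4.89 at day 3 and 4.30 to 6.37 in sham livers (5.35-fold, log2 difference 2.42, SE 0.28, adjusted p = 1.714e-06). The others were Atp6v0d2 and Prom1, which also belong to the macrophage and duct lists. Cyp2b10 and Cux2, a P450 and a transcription factor of female liver, differed by -0.53 and -0.54 and did not pass. In the growth hormone axis, which sets sex bias in mouse liver, Stat5b, the signal transducer, rose by 0.53 and Igf1, the hormone it induces, fell by 0.41, the Igf1 call being lost without 6 of the 10 single arrays (adjusted p = 0.05022 to 0.1128). Of the 16 genes of this axis tested 12.5% passed, near the 9.51% of all genes tested.

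The largest fall of all named genes was that of Obp2a, an odorant-binding lipocalin. It had 5.38, 4.83, 7.01, 5.10 and 5.18 at day 21, against 8.17, 10.02, 12.0013, 11.84 and 10.94 at day 3, a 34.3-fold lower mean (log2 difference -5.10, SE 0.72, adjusted p = 2.662e-05). Sham livers had 4.94 to 7.62, so Obp2a stood above sham in every day 3 liver and within or just below the sham range in the day 21 livers. Among 27 acute phase and interleukin 6 response genes, 3 fell and 1 rose (14.8% passed, against 9.51% of all genes tested). Saa3, a serum amyloid A protein made outside as well as inside hepatocytes, had 7.76, 6.97, 8.00, 6.91 and 7.02 at day 21, against 9.92, 10.30, 8.9997, 9.49 and 9.39 at day 3 (log2 difference -2.29, SE 0.36, adjusted p = 8.789e-05). Apcs, serum amyloid P, fell by 0.89 and Orm1, an acid glycoprotein, by 0.40. The Apcs call was lost without replicate 5 of day 3 (adjusted p = 0.05155), and the Orm1 call without 4 of the single arrays (0.07914 to 0.09267). The gene that rose was Cd14, the endotoxin coreceptor, with 9.60 to 10.18 at day 21 and 7.96 to 8.82 at day 3, against 5.11 to 6.32 in sham livers. Lcn2, lipocalin 2, was 12.88 to 13.18 at day 21 and 12.93 to 13.27 at day 3, and its difference was -0.06 (SE 0.37). Of 30 secreted plasma proteins 3 rose, namely Serpina6, Mbl2, a mannose-binding lectin (0.79), and Apoc1, an apolipoprotein (0.43). The Mbl2 call was lost without a filter, with centred arrays, with only the 10 or only the 20 BDL arrays (adjusted p = 0.05697 to 0.07558) and without 7 of the 10 single arrays (0.07246 to 0.1522). Those that fell were Apoa4, an apolipoprotein (-1.91), and F11, coagulation factor XI (-0.99). In this list 16.7% of genes passed, against 9.51% of all genes tested.

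Cell cycle genes fell in 4 of 34 (11.8%) and rose in none. Of all genes tested 9.51% passed, with 1.93% lower and 7.59% higher. The list had a median log2 difference of -0.33, and 3 of its 34 genes lay above 0. Mki67, the proliferation antigen Ki-67, had 6.70, 6.66, 5.86, 6.91 and 6.36 at day 21, against 7.08, 7.76, 7.04, 7.62 and 6.78 at day 3 and 5.67 to 6.22 in sham livers. The groups overlapped slightly (log2 difference -0.76, SE 0.22, adjusted p = 0.02371), and the call was lost without replicate 3 or 5 of day 21 or replicate 2 or 4 of day 3 (adjusted p = 0.05792 to 0.09108). Ccne1, the cyclin that starts DNA replication, fell by 0.64, Foxm1, a transcription factor of mitotic genes, by 0.58 and Tpx2, a spindle protein, by 0.54. The Tpx2 call was lost without replicate 3 of day 21 or replicate 2 of day 3 (limma adjusted p = 0.05123 and 0.07081). Ccnd1, cyclin D1, differed by 0.04 (SE 0.26) and Cdk1, the mitotic kinase, by -0.35 (SE 0.24). The median of the list's mean level was 5.870 at day 21 (5.709 to 6.142), 6.100 at day 3 (5.774 to 6.724), 6.586 at day 7 of BDL (6.187 to 6.706) and 5.602 in the day 7 sham livers (5.551 to 5.827). The promoter of Mki67, at chr7:135716380-135716629 (minus strand, RefSeq, GRCm38.p6), is shown because cell cycle promoters are known for CCAAT boxes and for TTTGAA, the cell cycle homology region bound by the DREAM complex. Capitals mark both motifs on either strand in the 250 bases before the start.
Mki67: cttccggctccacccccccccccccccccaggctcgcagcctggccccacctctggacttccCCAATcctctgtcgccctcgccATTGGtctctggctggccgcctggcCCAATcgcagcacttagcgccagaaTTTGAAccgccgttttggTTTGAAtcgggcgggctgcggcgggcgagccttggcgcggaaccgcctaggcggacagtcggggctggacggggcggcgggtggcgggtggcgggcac
It holds CCAAT at 188 and 141 bases before the start, its reverse complement at 166, and TTTGAA at 116 and 98. In windows of 250 bases before to 50 after the start, CCAAT was present in 20 of the 26 cell cycle genes with a promoter in the table (76.9%) and in 41.1% of all genes, and TTTGAA in 12 of 26 (46.2%) and in 20.2% of all genes. TATAAA was present in 0 of 26 and in 15.7% of all genes, and CACGTG in 1 of 26 (3.85%) and in 8.09%. Among the 11452 genes tested that had a promoter, the shares were 41.6% for CCAAT, 14.2% for TTTGAA, 9.97% for TATAAA and 11.1% for CACGTG. Binding was not measured.

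Clock genes changed in both directions, 2 of 16 higher and 2 lower. Ciart, a repressor of the clock, had 8.10, 6.16, 5.93, 5.71 and 6.03 at day 21, against 8.63, 7.72, 8.15, 7.68 and 8.72 at day 3 (log2 difference -1.79, SE 0.43, adjusted p = 0.007706). Npas2, a clock activator, had 5.41, 6.92, 7.54, 7.18 and 7.18 at day 21, against 5.33, 4.72, 5.62, 5.52 and 5.41 at day 3 (log2 difference 1.53, SE 0.35, adjusted p = 0.004679). Replicate 1 of day 21 lay among the day 3 livers for both genes. Cry1, a core repressor, fell by 0.57, and Nr1d1, the repressor REV-ERB alpha, rose by 0.65 at an adjusted p of 0.04943, a call lost without a filter (0.06473), when arrays were centred (0.08537) and without 9 of the 10 single arrays. The labels do not give the hour of tissue collection.

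In limma none of the 30 respiratory chain genes, 14 p53 targets, 9 mesothelial genes, 10 nerve and smooth muscle genes and 7 exocrine pancreas genes passed. At an unadjusted p under 0.05 there were 3 respiratory chain genes, 3 p53 targets, 0 mesothelial, 1 nerve or smooth muscle and 1 pancreas gene, and 3202 of all genes tested. With array weights 2 respiratory chain genes, 1 p53 target and 1 sinusoidal endothelial gene passed. In other lists 1 gene rose among 13 hepatocyte transcription factors (Cebpa, 0.59), 16 periportal genes (Pigr, the antibody transporter, 0.68), 16 NRF2 and glutathione genes (Ephx1, an epoxide hydrolase, 0.72) and 19 immediate early genes (Jund, 0.46). These shares, 5.26% to 7.69%, were below the 9.51% of all genes tested. One fell among 17 unfolded protein genes (Herpud1, -0.72) and among 4 erythroid genes (Tfrc, the transferrin receptor, -0.53). Of 16 nuclear receptors and coregulators Nr1i2, the xenobiotic receptor PXR, fell by 0.71 and Nr1d1 rose (12.5% passed). Of 11 fetal liver genes 4 passed (36.4%, against 9.51% of all genes tested): Spink1 and Mest rose and Peg3 and Afp fell. The Spink1 call was lost without replicate 5 of day 3 (limma adjusted p = 0.05414). Afp, alpha-fetoprotein, fell by 0.47 at an adjusted p of 0.04072, and its call was lost without a filter, with only the 10 arrays and without 7 of the 10 single arrays (0.05341 to 0.1415).

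The same genes were placed against the livers of day 7 of BDL and against sham. Of the 1115 genes higher at day 21, the day 7 mean lay between the means of days 3 and 21 in 909 (81.5%), past the day 21 mean in 188 and on the far side of the day 3 mean in 18. The day 21 mean of these genes lay above sham day 7 in 1031 (92.5%) and was further from it than the day 3 mean in 912 (81.8%). Of the 283 lower genes, the day 7 mean lay between the others in 217 (76.7%). Their day 21 mean was nearer to sham day 7 than the day 3 mean in 145 (51.2%) and further from it in 138 (48.8%). Obp2a and Saa3 were of the first kind, and Mup3, Cyp4a12a and Serpina1e of the second. These positions share the arrays that chose the genes and are descriptions.

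When each day was set against its sham, as BDL at day 21 minus sham at day 7, less BDL at day 3 minus sham at day 3, 88 genes passed (0.599% of those tested), 79 higher and 9 lower, of which 85 were among the 1398. The sham groups hold 4 and 2 livers, and the median standard error was 0.22 against 0.13 above. The sign was unchanged in 1388 of the 1398 genes. Both forms contain the same difference of the BDL arrays, by which these genes were chosen, so this agreement was largely set in advance. Of the 132 named genes that passed the direct comparison, 22 passed here too. The higher ones were H2-Ab1 (log2 difference 3.89, adjusted p = 0.0001253), H2-Aa, H2-Eb1, Igh-VS107, the Igkv4 segment, Jchain, Rragd, Slc22a26, Clec7a, Ms4a7, Lpl, Cd36, Sox4, Cyp2c54, Cyp2c50 and Aldh3a2. The lower ones were Mup3 (-3.06, adjusted p = 4.409e-07), Serpina1e, C4a, Dpy19l3, a protein C-mannosyltransferase, Tm7sf2 and F11. The named collagens, Cyp7a1, Cyp8b1, Obp2a and Saa3 did not pass in this form, with log2 differences of 0.50 for Col1a1, 3.29 for Cyp7a1, 2.33 for Cyp8b1, -4.46 for Obp2a and -1.80 for Saa3. For Col1a1 the sham mean of day 7 holds replicate 1 at 10.43, while the other sham livers of day 7 had 6.16 to 7.38. That liver raises the sham mean and so lowers the Col1a1 difference here. Col1a2 and Col3a1 were also highest in that liver (9.36 and 9.23) among the sham livers.

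**Figure D5:**
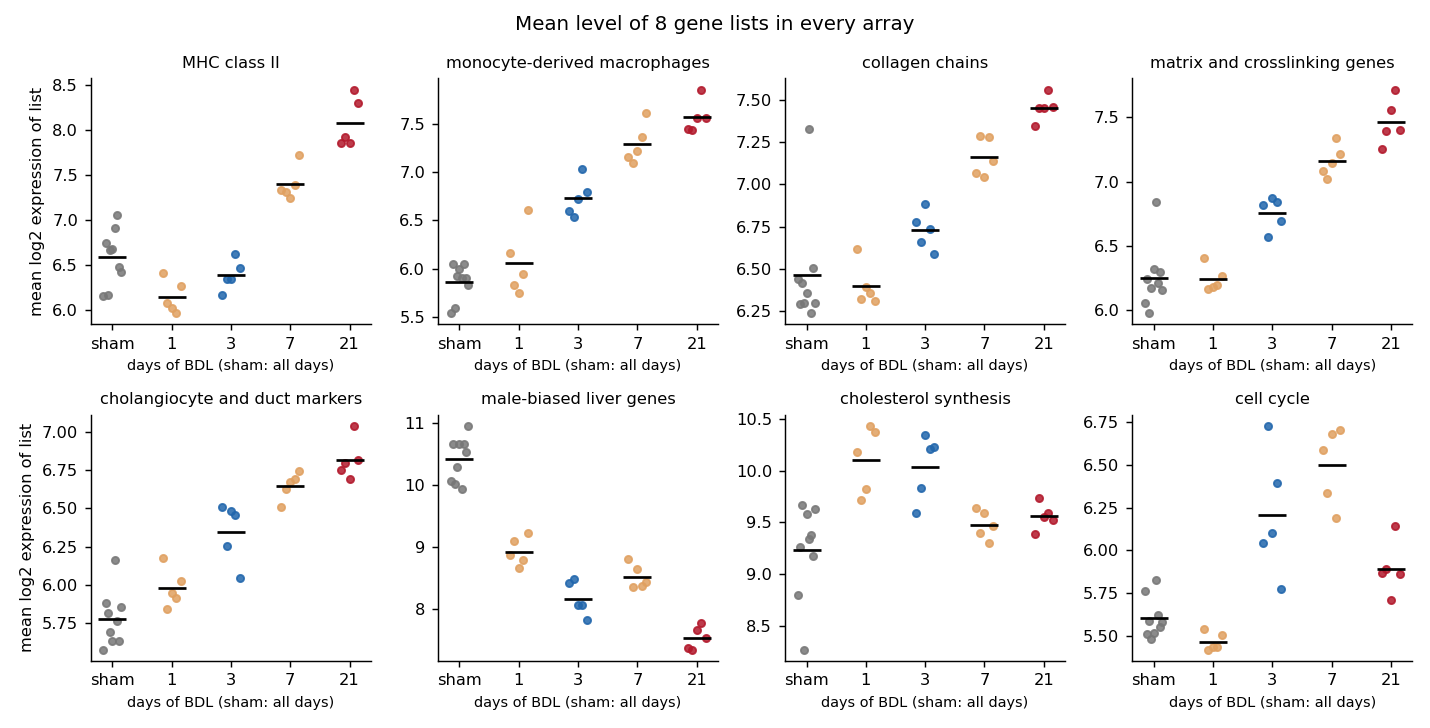
Mean log2 expression of the genes of 8 lists in each array (points) and each group's mean (bar), for sham livers of all days and for BDL at days 1, 3, 7 and 21. MHC class II and collagen means are highest at day 21 (7.85 to 8.45 and 7.35 to 7.56), while the cell cycle median is highest at day 7 (6.586).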

How the data were processed

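Liver RNA of 29 mice was measured on Affymetrix arrays. The deposited log2 values were made by the authors by RMA in oligo 1.52.0, which the submitters' processing notes name. RMA corrects background, equalises the distribution of arrays and combines probes into 1 value per row, so overall shifts between arrays are removed and low and near-ceiling signals are compressed. The row identifiers match the annotation of Mouse Gene 2.0 ST, which gave the gene names, updated through a RefSeq table of GRCm38.p6, although the labels' protocols name another mouse array type. No source used here gives the authors' genome build. Rows with several symbols were not named, and a gene's row of highest mean was kept. A gene was tested if at least 3 arrays exceeded 5 on the log2 scale, which left 14699.

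limma 3.58.1 (lmFit and eBayes, R 4.3.3) was run on the 29 arrays together with each group's mean as a coefficient, and the contrast of BDL day 21 minus BDL day 3 was tested, two-sided, with Benjamini-Hochberg adjustment over all genes tested and a threshold of 0.05. Animal numbers in the titles differ, and p-values reflect variation among these mice, while 5 per group limit the precision. Errors beside differences are standard errors of the model. On simulated data, 94% of 200 genes changed by 1 on the log2 scale were recovered in a fit of 14699 genes, with 14 unchanged genes called. The simulated noise was normal, independent between arrays and of equal SD in every group. The real arrays include outlying livers and genes of wide spread at day 3, so recovery there may differ.

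Genes were named by rule: 20 top rises and 20 top falls among called genes with no overlap between groups (predicted genes passed over), up to 4 members of each of 45 lists with the largest change past the threshold, and 33 genes always reported, which gave 148. Other list members are named to describe a list. The 45 lists hold 962 genes, of which 884 were measured and 797 tested. The comparison and the lists were chosen with earlier results of these data known. List counts and medians are descriptions, and no test was made over a list. Replicates are numbered in accession order, so they pair nothing. Promoters were matched by symbol in the RefSeq table, and H2-Ab1, Col1a1 and Cyp7a1 had no entry. Alternatives were other filters, the mean of a gene's rows, cyclic loess, centred arrays, fits of fewer arrays, an intensity trend, array weights, sham subtraction and leaving out each array.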

Additional observations from a re-analysis of the deposited data

Results flagged for a closer look

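Among the 148 named genes, each group of 5 arrays was searched for a highest or lowest array set far apart from the other 4 by Dixon's test at the 95% level. It marked 18 of 296 groups (6.08%), and chance marks about 1 in 20, so single marks carry little weight.

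Replicate 4 of day 21 was the highest of its group for Rragd (8.66, against 7.92 to 8.08 in the other 4), Col14a1 (8.93), Adgre1 (9.15) and Krt19 (6.79). Replicate 1 of day 21 was the highest for Ciart (8.10) and the lowest for Npas2 (5.41). Replicate 3 of day 21 was the highest for Obp2a (7.01) and Etfdh (10.67), an electron carrier of fatty acid oxidation, and replicate 5 the lowest for Nr1h4 (8.80).

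Replicate 5 of day 3 was the lowest of its group for Ms4a7 (3.86), Reln (6.82) and Gzmk (4.29), a granzyme of T and NK cells, and the highest for Cyp2d9 (10.92) and Peg3 (8.72), an imprinted zinc finger gene. Replicate 2 of day 3 was the highest for Ehhadh (9.90) and Mmp12 (6.66) and the lowest for Apcs (10.40). Replicate 1 of day 3 was the highest for Cyp17a1 (10.85).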

How the results depend on the processing

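The number of genes past the threshold was 1398, and between 1245 and 1632 without a filter, with a stricter filter, with the mean of a gene's rows, with cyclic loess or centred arrays, with only the 10 or only the 20 BDL arrays and with an intensity trend. It was 2260 with array weights, of which 634 were lower, and 88 with each day less sham, 79 higher and 9 lower. Centring gave 742 higher and 579 lower genes. A fit without the 4 day 1 arrays of low spread, an alternative chosen after seeing the data, gave 1822. Leaving out single arrays gave 813 to 1451 genes, 658 to 1133 higher and 155 to 318 lower. The lowest counts came without replicate 4 of day 21. The cause was not tested. No paired analysis was possible because replicate numbers are accession order.

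Of the 132 named genes past the threshold, 89 kept the call in every alternative other than the subtraction of sham, and 34 lost it in at least one. The other 9 kept it wherever they were tested, but the stricter filter, which left out 17 named genes past the threshold, did not test them. Epcam was also lost without the 4 day 1 arrays (adjusted p = 0.0535). Of list medians, 34 of 945 moved by 1 SD or more. Among named genes the sign turned in Nr1h4, Ccnd1, Alb, Glul, Abcb11, Epcam, Gpnmb and Lcn2, of which Epcam was past the threshold. Centring gave Nr1h4 -0.0437, Ccnd1 -0.0477 and Alb -0.0443. Array weights gave Ccnd1 -0.0426, and the mean of rows gave Glul -0.0452. Subtraction of sham gave Ccnd1 -0.54, Epcam -0.10, Gpnmb -0.33 and Lcn2 0.54. Leaving out single arrays gave Abcb11 -0.2489 to 0.1239, Glul -0.0128 to 0.3715 and Ccnd1 -0.1852 to 0.1816. Signals below a log2 level of 5 are weak: 17 named genes past the threshold had a group mean under it, which limits the size of their folds.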

Other observations

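Among the 20 largest falls of genes whose groups did not overlap were transcripts outside every list. Hhip, an inhibitor of hedgehog ligands, had 4.22, 3.80, 3.98, 4.09 and 3.96 in the day 21 livers, against 4.51, 4.57, 6.06, 5.95 and 4.98 in the day 3 livers and 4.93 to 5.53 in sham livers (limma adjusted p = 0.0004413). Every day 21 liver lay below every sham liver, at a weak signal. Hnf4aos, transcribed antisense to the hepatocyte regulator Hnf4a, fell by 1.44 (adjusted p = 0.0006126), while Hnf4a differed by -0.02. Serpina4-ps1, a serpin pseudogene with near-identical relatives, had 4.05 to 5.20 at day 21, 6.55 to 8.70 at day 3 and 7.71 to 12.44 in sham livers. The small nucleolar RNA Snord1b had 7.29 to 8.11 at day 21 and 8.88 to 9.39 at day 3.

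Among the rises, Aqp8, a water channel of the bile canaliculus, had 7.23, 8.24, 8.08, 8.73 and 8.40 at day 21, against 5.56, 7.08, 5.94, 6.23 and 6.08 at day 3 (log2 difference 1.96, SE 0.26, adjusted p = 1.192e-05). Sham livers had 6.34 to 7.77. Sytl5, a synaptotagmin-like protein of vesicle transport, had 6.95 to 7.71 at day 21, 4.79 to 6.65 at day 3 and 3.29 to 6.21 in sham livers. Elf3 had 6.12 to 8.32 at day 21 and 5.17 to 5.92 at day 3, above its sham range of 3.93 to 4.51 in every liver of both days.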
